A study of Mus musculus with 12 samples.

Results

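Glycolysis was followed through 10 enzyme genes, Hk1, Gpi1, Pfkm, Pfkl, Pfkp, Aldoa, Gapdh, Pgk1, Pgam1 and Pkm, which cover the steps of the pathway other than those of enolase and triosephosphate isomerase. They were chosen by name from the 55678 gene names of the deposited table, and the values of all rows that carried a name were added up. All 10 were found and all 10 passed the filter on low values. In the medial prefrontal cortex of mice, none of the 10 passed the test after chronic restraint stress in either of 2 inbred strains, where 0% (B6) and 0.00609% (BALB/c) of all tested genes did. Between the strains 1 of the 10 passed, Gapdh, beside 4.73% of all tested genes in controls and 7.70% under stress. Its level was the lower one in BALB/c, while a processed pseudogene that differs from it by a single base over 1000 bases was higher in BALB/c. Added to its near-identical copies, Gapdh was higher in BALB/c. This difference did not pass the test once copies were weighted by length, with the longest coding transcript taken as the length of Gapdh.

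The samples were 12 RNA-seq libraries, 1 per mouse, in 4 groups of 3: C57BL/6JmsSlc (B6) control, B6 with chronic restraint stress (CRS), BALB/cCrSlc (BALB/c) control and BALB/c with CRS. Both strains are unmodified inbred lines as far as the labels say. At an age of 9 to 10 weeks, stressed mice were restrained on 21 consecutive days for 6 h each in the home cage, and control mice were only handled. Every mouse had gone through behavioural tests before a 1.5 mm punch of the cortex was taken, so that all groups share this experience. Libraries are named here by strain, group and animal number. The labels give neither the sex of the mice nor the litter or the order of collection. A p-value from limma, the test used per gene, sets a difference of group means against the spread within the 4 groups of these 12 mice. The unit is TPM, a transcript abundance that divides by transcript length and scales every library to the same total. TPM keeps no read depth, so depth per library is unknown beyond the planned 6 Gb.

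Glycolysis turns glucose into pyruvate in the cytosol and yields ATP and NADH. Hexokinase and phosphofructokinase commit glucose to the pathway, aldolase splits the sugar, glyceraldehyde-3-phosphate dehydrogenase (GAPDH) makes NADH, and phosphoglycerate kinase and pyruvate kinase make ATP. Neurons and astrocytes both carry the pathway, and the brain takes most of its energy from glucose. Gapdh is also widely used as a reference gene to which other transcripts are normalised.

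The cortical label was checked against its markers, and all 7 markers of excitatory cortical neurons were detected in every library, with Slc17a7, the vesicular glutamate transporter, at 390.4 to 1074 TPM. Libraries differed in tissue makeup. The summed level of 8 striatal markers, all 8 of them detected, ran from 217 to 2829.6 TPM in the B6 control mice, 979 to 2304 in B6 with CRS, 118 to 395 in BALB/c controls and 139 to 184 in BALB/c with CRS. The sum of 7 oligodendrocyte markers, all 7 detected, was 2471 to 9529, 2710.2 to 7709.8, 472 to 3041 and 535 to 1436 TPM in the same order. In bulk tissue, fewer cells of a type and less RNA per cell cannot be told apart.

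Gapdh is the member with the most near-identical relatives in the genome, and the letters matter for its values. The gene lies on the minus strand at chr6:125161715-125166467 (GRCm38, GENCODE M21), and its longest coding transcript has 1420 bases in 7 exons, with the coding sequence from base 241 to base 1242. Gm13394 is a processed pseudogene, an intronless copy of the messenger RNA, at chr2:28933610-28934609, minus strand, inside the Cfap77 gene on the same strand. Its 1000 bases align to Gapdh bases 241 to 1240 with 1 mismatch, A586C, in exon 4 at chromosome 6 position 125163016 (Gapdh base first, counted from the 5′ end of the transcript, then the base of the copy; A346C in coding numbering). Gm5559, a pseudogene at chr5:95861714-95862715, has 1 mismatch over 1002 bases, T625A, also in exon 4. The stretch below, bases 556 to 655 of the Gapdh transcript, holds both differences, with the differing bases in capitals, so that the near-identity of the 3 sequences can be seen.
Gapdh: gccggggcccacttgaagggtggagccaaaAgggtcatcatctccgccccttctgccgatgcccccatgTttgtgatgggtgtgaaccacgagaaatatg
Gm13394: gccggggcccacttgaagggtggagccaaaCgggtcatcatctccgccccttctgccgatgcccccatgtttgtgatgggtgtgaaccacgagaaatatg
Gm5559: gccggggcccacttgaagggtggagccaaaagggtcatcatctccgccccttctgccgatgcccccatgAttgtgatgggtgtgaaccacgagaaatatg

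By the rule that a copy matches at least 95% of bases over at least 80% of the shorter transcript, 69 names in the table were copies of Gapdh, 19 of them with a mean of at least 1 TPM. This search used the longest coding transcript and was added after the data were seen, because the longest Gapdh transcript of the reference keeps an intron and matched 1 copy. Pgk1 had 3 copies, 2 of them identical to it over their length, and all were listed at 0. Pgam1 had 1, Pgam1-ps2, and Pkm had 1, Gm6560, at a mean of 0.0856 TPM. Hk1, Gpi1, Pfkm, Pfkl, Pfkp and Aldoa had none by this rule. By name alone Aldoa had copies too, the most abundant of them Aldoart2, at a mean of 0.0197 TPM.

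Gapdh itself stood at 2683, 3009 and 3533 TPM in the B6 control mice 2, 3 and 9 and at 2901, 2926 and 3459 TPM in the B6 CRS mice 12, 13 and 14. In BALB/c it stood at 2128, 2039 and 2051 TPM in control mice 5, 9 and 10 and at 2002, 2090.2 and 1978 TPM in CRS mice 12, 13 and 15. The 6 BALB/c libraries all lay below the 6 B6 libraries, and within each strain the control and CRS mice overlapped. Group means were 3075 ± 429 (SD, n = 3) and 2073 ± 48.4 TPM in controls of B6 and BALB/c, and 3095 ± 315 and 2023 ± 59.0 TPM under CRS. The difference was -0.56 ± 0.11 (SE) on the log2(TPM + 1) scale in controls, a fold of 0.678, with an adjusted p of 0.0111 in limma. Under CRS it was -0.61 ± 0.11, a fold of 0.656, with an adjusted p of 0.00604 in limma. Leaving out 1 mouse at a time kept the difference between -0.65 and -0.46 in controls and between -0.65 and -0.53 under CRS, called each time. The call was lost without a filter on low values, where more genes enter the adjustment (adjusted p = 0.0984 in controls and 0.0552 under CRS in limma), and in controls also when only the 6 control libraries were fitted (adjusted p = 0.0714).

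Gm13394 ran the other way. Its values were 33.8, 46.7 and 55.4 TPM in the B6 controls and 46.8, 53.3 and 47.4 TPM in the B6 CRS mice, against 2347, 2277 and 2238 TPM in the BALB/c controls and 2164, 2536 and 2326 TPM in the BALB/c CRS mice. For every 100 TPM of Gapdh, a B6 library carried 1.26 to 1.82 TPM of Gm13394 and a BALB/c library 108 to 121 TPM. On the log2(TPM + 1) scale the strain difference was 5.65 ± 0.15 in controls (adjusted p = 5.91e-11 in limma) and 5.54 ± 0.15 under CRS (adjusted p = 7.08e-11). In BALB/c mice the pseudogene was thus listed at a higher level than the gene in each of the 6 libraries.

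Other copies divided by strain as well. Gm7336, at chr7:51746647-51747878 on the plus strand, matches 1232 bases of the transcript with 1 mismatch (G197A) and 2 gaps, and was at 68.4, 66.0 and 109 TPM in the B6 control mice, 75.0, 43.4 and 62.6 in B6 CRS, 363, 356 and 307 in BALB/c controls and 317, 393 and 356 in BALB/c CRS mice. Gm5559 had 8.76, 25.5 and 20.0 TPM in B6 controls and 12.2, 16.5 and 26.4 in B6 CRS mice, and the value of each of the 6 BALB/c libraries was 0. Gm2606, at chr15:12574889-12575890, with the single mismatch C823T over 1002 bases, was lower in BALB/c, with a log2 difference (BALB/c minus B6) of -1.41 ± 0.21 in controls and -1.60 ± 0.21 under CRS (adjusted p = 0.00183 and 7.00e-04 in limma). Gapdh-ps16, a copy by its name, was at 6.12 to 10.9 TPM in B6 and 0 to 1.54 TPM in BALB/c. The copies thus included names higher in BALB/c and names higher in B6, and the 2 most abundant, Gm13394 and Gm7336, were higher in BALB/c.

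Gapdh and its 69 copies together summed to 2891, 3263 and 3863 TPM in the B6 control mice, 3132, 3146 and 3707 in B6 CRS, 4895, 4732 and 4659 in BALB/c controls and 4549.9, 5089 and 4732 in BALB/c CRS mice. On this sum the strain difference turned round, to 0.52 ± 0.11 in controls (adjusted p = 0.0221 in limma) and 0.53 ± 0.11 under CRS (adjusted p = 0.0172). TPM is per length and the copies are mostly shorter than the transcript. Each copy was then weighted by its length over the 1420 bases of the longest coding Gapdh transcript. With this weighting the difference was 0.31 ± 0.11 in controls and 0.31 ± 0.11 under CRS, neither of them called in limma (adjusted p = 0.165 and 0.123). The weighting takes every Gapdh row as that transcript, although the transcript of each row is not known. The copies made up 6.70% to 8.54% of the unweighted sum in B6 libraries and 56.0% to 58.9% in BALB/c libraries. Gapdh values are therefore uncertain wherever the quantification could divide reads among these names, and the direction of the strain difference depends on how the copies are counted.

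**Figure D1:**
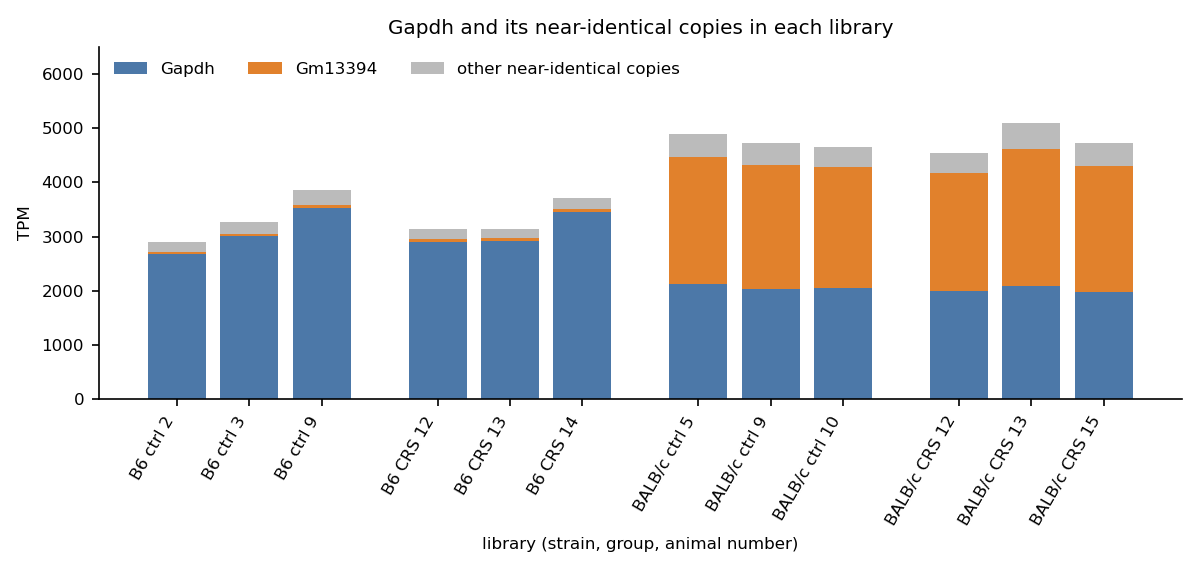
Stacked bars give TPM (y axis) in each of the 12 libraries (x axis) for Gapdh (blue), the pseudogene Gm13394 (orange) and the other near-identical copies (grey). Gapdh is the lower part of every bar and is shorter in the 6 BALB/c libraries, where Gm13394 adds 2164 to 2536 TPM and the whole bar is taller than in any B6 library.

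Within Gapdh, the rows of the table that carry its name also shifted. The file gives 13 rows named Gapdh, 11 with a value above 0, and does not say which transcript each one is. The row with the largest mean was at 1220.1, 1434 and 1566 TPM in the B6 control mice, 1296, 1297 and 1608 in B6 CRS, 533, 469 and 424 in BALB/c controls and 445, 523 and 439 in BALB/c CRS mice. The second was at 311, 307 and 381 TPM in the B6 control mice, 304, 373 and 363 in B6 CRS, 1389, 1351 and 1389 in BALB/c controls and 1396, 1282 and 1220.5 in BALB/c CRS mice. The third was at 961, 1035 and 1388 TPM in the B6 control mice, 1129, 1037 and 1253 in B6 CRS, 40.6, 52.6 and 47.5 in BALB/c controls and 40.1, 40.6 and 56.1 in BALB/c CRS mice. The first and the third row were lower in every BALB/c library than in any B6 library, and the second was higher, so that its share of the Gapdh total was 10.2% to 12.7% in B6 and 61.3% to 69.8% in BALB/c. These rows were not tested one by one. For comparison, the first row of Pkm held 57.6% to 63.5% of its total in B6 and 61.7% to 65.4% in BALB/c.

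**Figure D2:**
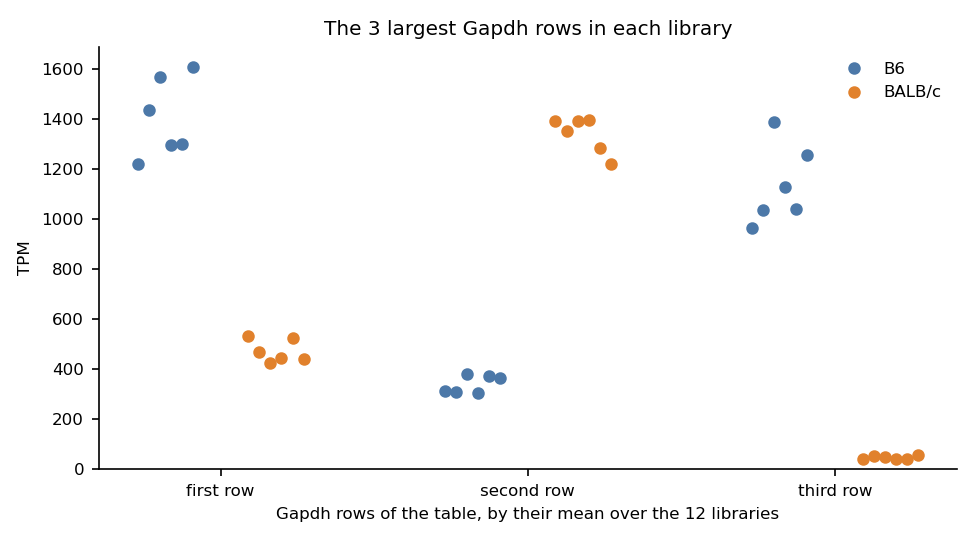
Points give TPM (y axis) of the 3 largest Gapdh rows (x axis) in the 6 B6 (blue) and 6 BALB/c (orange) libraries. The strains do not overlap in any of the 3 rows; the second row is the one that is higher in BALB/c.

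The other 9 enzymes are taken in the order of the pathway. Hk1, hexokinase 1, phosphorylates glucose on entry (chr10:62268855-62379908, minus strand). It was at 128, 176 and 209.9 TPM in the B6 control mice, 129, 129.6 and 179 in B6 CRS, 188, 158 and 170.3 in BALB/c controls and 151, 199 and 194 in BALB/c CRS mice. The B6 control mice alone spanned 1.63-fold, from the lowest to the highest of the 12 values, and the 4 groups overlapped. Gpi1 (chr7:34201330-34230336, minus strand) encodes glucose-6-phosphate isomerase, which turns glucose 6-phosphate into fructose 6-phosphate. Its values were 456, 476 and 542 TPM in the B6 control mice, 455, 466 and 541 in B6 CRS, 534, 476 and 529 in BALB/c controls and 509, 573 and 516 in BALB/c CRS mice. Gpi1 was the steadiest member, with a coefficient of variation within groups of 7.95%, against 17.5% for Hk1, the most variable.

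Phosphofructokinase, the main control point of the pathway, is built from 3 subunit genes. The muscle-type subunit Pfkm (chr15:98092589-98132451, plus strand) was at 178, 188 and 244 TPM in the B6 control mice, 177, 173 and 216 in B6 CRS, 218, 167 and 192 in BALB/c controls and 169, 214 and 209 in BALB/c CRS mice. The platelet-type subunit Pfkp (chr13:6579768-6648777, minus strand) was at 124, 153 and 194 TPM in the B6 control mice, 126, 131 and 162 in B6 CRS, 168, 160.4 and 163 in BALB/c controls and 144, 188 and 175 in BALB/c CRS mice. In both genes the highest value of the 12 was that of B6 control mouse 9, and no pair of groups was apart. The liver-type subunit Pfkl (chr10:77986947-78010083, minus strand) was the lowest of the 10 members, at 65.7, 84.9 and 100.1 TPM in the B6 control mice, 67.8, 70.2 and 93.6 in B6 CRS, 106, 87.6 and 94.3 in BALB/c controls and 88.3, 113 and 106 in BALB/c CRS mice. BALB/c values of Pfkl lay mostly above those of B6, with overlap in both comparisons. Under CRS the strain difference of Pfkl was 0.41 ± 0.17 (log2, unadjusted p = 0.0310 and adjusted p = 0.160 in limma), and it was not called. It did pass under both other scalings, with 0.48 (adjusted p = 0.0349 in limma) after median-of-ratios scaling, which brings the typical gene to the same level in every library, and 0.47 (adjusted p = 0.0430) with mitochondrial and abundant non-coding RNA left out of the total.

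Aldoa, aldolase A, splits fructose 1,6-bisphosphate. The name covers 2 neighbouring gene models of the annotation, at chr7:126800790-126809108 and chr7:126795234-126800751, both on the minus strand. It was at 1608, 2062 and 2369 TPM in the B6 control mice, 1720.1, 1888 and 2138 in B6 CRS, 2161, 1988 and 2009 in BALB/c controls and 1992, 2295 and 2103 in BALB/c CRS mice, with overlap between all groups. After the GAPDH step, Pgk1 (chrX:106187100-106203699, plus strand) encodes phosphoglycerate kinase 1, the first ATP-yielding enzyme. Its values were 282, 334 and 435 TPM in the B6 control mice, 295, 308 and 362 in B6 CRS, 387, 376 and 342 in BALB/c controls and 329, 383 and 353 in BALB/c CRS mice. The lowest and the highest of the 12 Pgk1 values both came from B6 controls.

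Pgam1 (chr19:41911923-41918660, plus strand), phosphoglycerate mutase 1, moves the phosphate group to the position that enolase needs. It was at 367, 437 and 544 TPM in the B6 control mice, 400.3, 407 and 503 in B6 CRS, 523, 475 and 473 in BALB/c controls and 441, 488 and 484 in BALB/c CRS mice. Its copy Pgam1-ps2 (chr7:27469771-27470535, minus strand) is identical to it over 765 bases. The copy was listed at 0 in every B6 library and in 3 of BALB/c. BALB/c control 5, CRS 13 and CRS 15 had 36.0, 64.0 and 34.2 TPM of it. At its highest, in BALB/c CRS 13, the copy was at 64.0 TPM beside 488 TPM of Pgam1. Its BALB/c group means were 12.0 TPM in controls and 32.7 TPM under CRS, beside 490 and 471 TPM of Pgam1. Pkm (chr9:59656368-59679375, plus strand), pyruvate kinase of muscle and brain, makes the pyruvate, and was at 870.4, 962 and 1087 TPM in the B6 control mice, 894, 923 and 1119 in B6 CRS, 978, 906 and 942 in BALB/c controls and 847, 1089 and 1020.3 in BALB/c CRS mice. Its group means lay between 942 and 986 TPM.

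**Figure D3:**
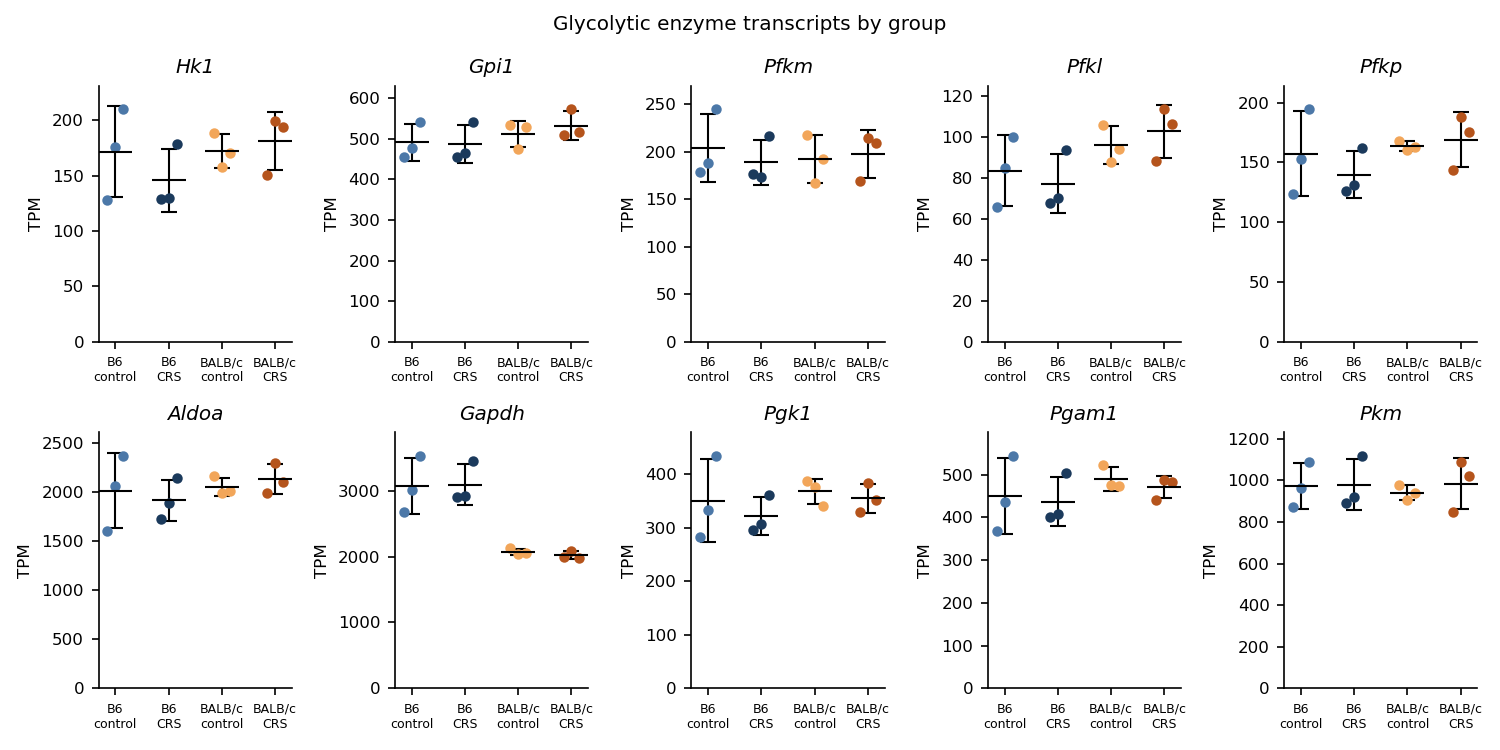
Each panel gives TPM (y axis, from 0) of 1 enzyme in the 4 groups (x axis), with a point for each mouse, a line for the mean and bars for the SD (n = 3). Groups overlap in 9 panels, and in the Gapdh panel the 2 BALB/c groups lie below both B6 groups.

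Since TPM is per length, levels can be ordered between genes. Over the 12 libraries Gapdh had the highest mean (2567 TPM), then Aldoa (2028), Pkm (969.8), Gpi1 (506), Pgam1 (462), Pgk1 (349), Pfkm (196), Hk1 (168), Pfkp (157) and Pfkl (89.8). Gapdh was taken here without its copies, and its mean in BALB/c (2048 TPM) lay below that of Aldoa (2091 TPM). The ranges of Aldoa and Pkm, Pkm and Gpi1, Pgk1 and Pfkm, and Pfkp and Pfkl did not overlap. Neighbours with overlapping ranges were Gapdh and Aldoa (Gapdh above in 9 of 12 libraries, all 6 of B6 and 3 of 6 of BALB/c), Gpi1 and Pgam1 (11 of 12), Pgam1 and Pgk1 (12 of 12), Pfkm and Hk1 (12 of 12), and Hk1 and Pfkp (10 of 12). Every member from aldolase on thus had a higher mean than hexokinase and each phosphofructokinase subunit.

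In B6, 0 of 10 members were called in limma (0 with an unadjusted p under 0.05), beside 0% of the 16423 tested genes called and 4.82% with an unadjusted p under 0.05. Member differences in B6 ran from -0.22 (Hk1) to 0.01 (Gapdh), with a median of -0.08, while the median over all tested genes was 0. This median rested on single mice: it was 0.06 without control 9, with 9 of 10 members positive, and -0.20 without control 2, with 0 of 10 positive. In BALB/c, 0 of 10 were called and 0 had an unadjusted p under 0.05, beside 0.00609% of all genes called and 3.03% with an unadjusted p under 0.05. Here the differences ran from -0.06 (Pgam1, without its copy) to 0.09 (Pfkl), with a median of 0.05, beside 0.05 over all genes, and the median was -0.02 without CRS mouse 13. Of the 10 differences 7 were positive, and 8 were once the copies matched by the longest transcript of each gene were added. The interaction, which tests the CRS effect of BALB/c against that of B6, called 0 of 10 members (0 with an unadjusted p under 0.05) and 0% of all genes (2.70% with an unadjusted p under 0.05). Averaged over strains, 0 of 10 members were called (0 with an unadjusted p under 0.05), beside 0.00609% of all genes (5.17% with an unadjusted p under 0.05). Groups overlapped for all 10 members in both strains, while over all genes the groups stood apart for 8.33% in B6 and 7.39% in BALB/c.

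The 95% intervals show what size of change these mice leave possible. For Gapdh the difference between CRS and control was 0.01 in B6, with an interval from -0.23 to 0.25, and -0.03 in BALB/c, from -0.27 to 0.20. Hk1 had the widest interval, from -0.63 to 0.18 in B6 around -0.22. Gpi1 had the narrowest, from -0.24 to 0.21 in B6 around -0.01. A p-value that misses the threshold does not show that levels were equal.

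Between strains, 1 of 10 members was called in controls and 1 of 10 under CRS, Gapdh in both. The unadjusted p was under 0.05 for 1 member in controls and 2 under CRS, beside 18.7% and 23.8% of all tested genes. Gapdh was also the 1 member whose strains did not overlap, in the lower direction, as did 18.7% of genes in controls and 20.0% under CRS. The other 9 ranged from -0.08 (Pfkm) to 0.21 (Pfkl) in controls, with a lowest adjusted p of 0.552 in limma. Under CRS they ranged from 0.01 (Pkm) to 0.41 (Pfkl), with a lowest adjusted p of 0.160. The strain comparisons in controls and under CRS use different mice.

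Over all genes, calls between strains leaned to the lower side in BALB/c, with 224 higher and 553 lower in controls and 389 higher and 875 lower under CRS. With median-of-ratios scaling the split was 328 to 392 and 650 to 747, and the median difference of all genes in controls moved from -0.10 to 0.00. The median of the 10 members in controls was 0.05 as deposited and 0.17 after this scaling. As deposited it was -0.09 without B6 control 2 (3 of 10 members positive) and 0.18 without B6 control 9 (9 of 10), and between these with any other mouse left out. Under CRS it was 0.14 and 0.20, beside -0.06 and 0.00 over all genes. Gapdh kept its direction under this scaling, with -0.44 in controls and -0.54 under CRS. Striatal markers moved with the strain contrast: 7 of 8 were called lower in BALB/c under CRS and 0 of 8 in controls, where the 8 were also lower at a median of -1.67. Of the 7 oligodendrocyte markers 0 were called in either comparison, but all 7 had an unadjusted p under 0.05 in limma in both, with medians of -2.21 in controls and -2.25 under CRS. Of the 7 astrocyte markers 1 was called in controls and 0 under CRS, with medians of -0.40 and -0.31. The 7 excitatory neuron markers were all higher in BALB/c in both comparisons, with medians of 0.19 and 0.52, and 0 were called. The part of tissue makeup in the strain differences was not tested.

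**Figure D4:**
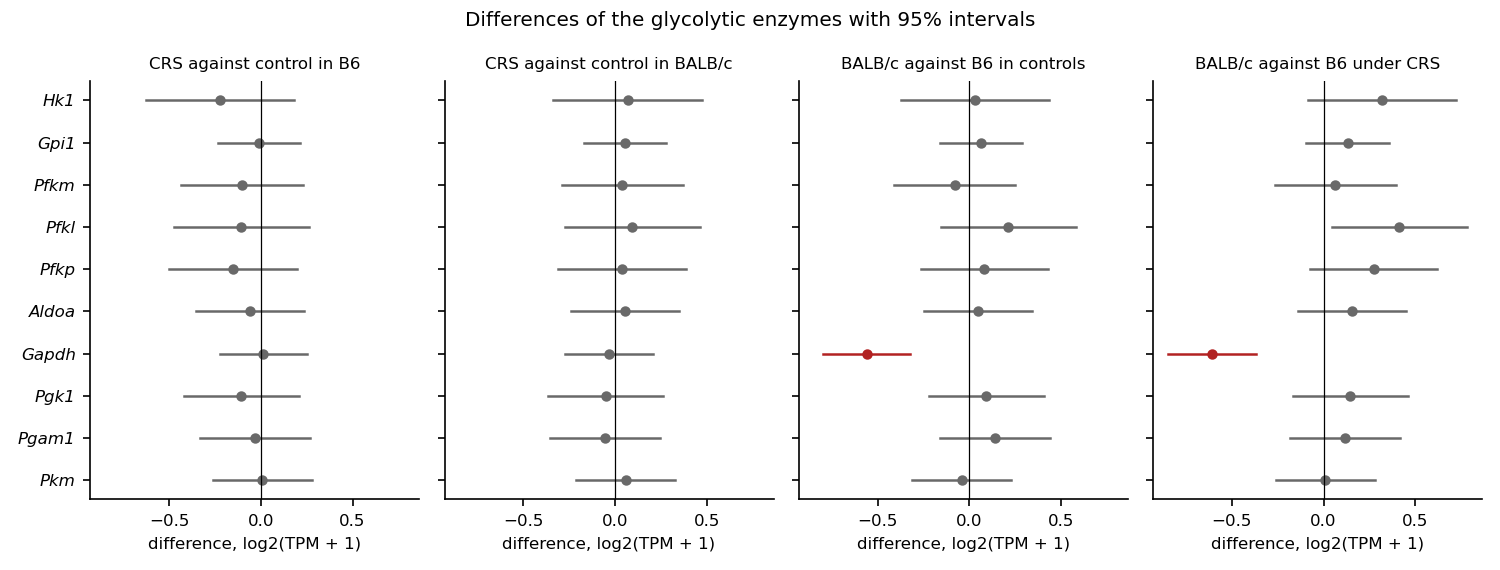
Points give the difference of each enzyme on the log2(TPM + 1) scale (x axis) with 95% intervals from limma, in 4 comparisons (panels); red marks an adjusted p under 0.05. Gapdh is the only red entry, at -0.56 and -0.61 in the strain panels, and every interval in the stress panels includes 0.

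The 10 members summed to 6763, 7882 and 9259 TPM in the B6 control mice, 7165, 7422 and 8773 in B6 CRS, 7390.3, 6832 and 6964 in BALB/c controls and 6673, 7634 and 7139 in BALB/c CRS mice. These sums overlapped in all 4 comparisons. With 3 mice against 3, the exact two-sided permutation test cannot go below 0.1. This permutation test gave p = 0.8 for CRS in B6, 0.8 for CRS in BALB/c, 0.4 between strains in controls and 0.4 under CRS (all 0.8 after adjustment over the 4 comparisons). Without Gapdh the sum was 4079.9, 4873 and 5726 TPM in B6 controls and 5262, 4794 and 4913 TPM in BALB/c controls, with means of 4893 and 4989.7 TPM. Without Gapdh, then, the mean was not the lower one in BALB/c. With the copies added, the total had a mean of 9764 TPM in BALB/c controls against 8232 TPM in B6 controls (exact permutation p = 0.3). Under CRS the means were 9948 and 8019.5 TPM, the strains did not overlap, and the exact permutation p was 0.1, the smallest that the design allows (0.4 after adjustment over the 4 comparisons).

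Within groups the 10 enzymes went up and down together from mouse to mouse in the deposited values. After group means were taken out, the 45 pairs of members had Pearson correlations of log2(TPM + 1) from 0.796 to 0.994, with a median of 0.908, over 12 libraries that share their scaling to a fixed total. No such correlations are given for pairs of other genes, so the shared movement cannot be called particular to these 10. In B6 controls, mouse 2 was lowest in all 10 members and mouse 9 highest in all 10. In the B6 CRS group mouse 14 was highest in all 10, and mouse 12 lowest in 9. In BALB/c, control mouse 5 and CRS mouse 13 were highest in all 10. The order in B6 stayed under both other scalings, with control 2 lowest and control 9 and CRS 14 highest in all 10. In BALB/c it did not: control 5 was highest in 3 members and CRS 13 in 5 after median-of-ratios scaling, and in 5 and 3 with the abundant RNA left out. The median correlation was 0.795 (lowest 0.425) and 0.781 (lowest 0.445) under these scalings, which were tried here after seeing the data. In the deposited values the members least tied to the mean of the other 9 were Gpi1 (r = 0.897) and Pfkm (r = 0.901), and the closest was Pfkl (r = 0.985).

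B6 control 2, the lowest, had 2829.6 TPM of striatal and 9529 TPM of oligodendrocyte markers, 2274 TPM over 5 general neuron markers, and 33.3% of its TPM in mitochondrial and abundant non-coding RNA. B6 control 9, the highest, had 217, 2471 and 4533 TPM and 28.1%. In B6 CRS mice 12 and 14 the same measures were 2304 and 979 TPM (striatal), 4906 and 2710.2 TPM (oligodendrocyte), 2417 and 3158 TPM (neuron), and 34.3% and 27.6%. In both B6 pairs the mouse with the higher glycolytic level had the lower striatal, oligodendrocyte and abundant RNA values. In the member sum B6 CRS mouse 13 lay between mice 12 and 14, but its oligodendrocyte sum of 7709.8 TPM was above both. BALB/c control mice 9, lowest in 8 members, and 5, highest in 10, had 3041 and 1291 TPM of oligodendrocyte and 3318 and 3641 TPM of neuron markers, and 36.8% and 32.9% of abundant RNA. BALB/c CRS mice 12, lowest in 9, and 13, highest in 10, had 535 and 1436 TPM, 2867 and 3475 TPM, and 40.2% and 30.2%. In all 4 pairs of a lowest and a highest mouse, the neuron markers went with the glycolytic level and the abundant RNA against it. In the last pair the oligodendrocyte markers went with the glycolytic level. Striatal sums were 395 and 182 TPM in BALB/c control mice 9 and 5, and 139 and 144 TPM in CRS mice 12 and 13. The middle mouse of a group lay between its pair in neuron markers and abundant RNA, except in BALB/c controls. There mouse 10 had a higher member sum than mouse 9 (6964 and 6832 TPM) with a lower neuron sum (3239 and 3318 TPM) and more abundant RNA (37.1% and 36.8%). With that RNA left out of the total, the sum of the 10 members still ran from 10133 TPM in B6 control 2 to 12874 TPM in B6 control 9, but from 10625 to 11164 TPM over the BALB/c libraries, where CRS mouse 12 was then the highest. The part of tissue makeup in the shared movement was not tested.

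**Figure D5:**
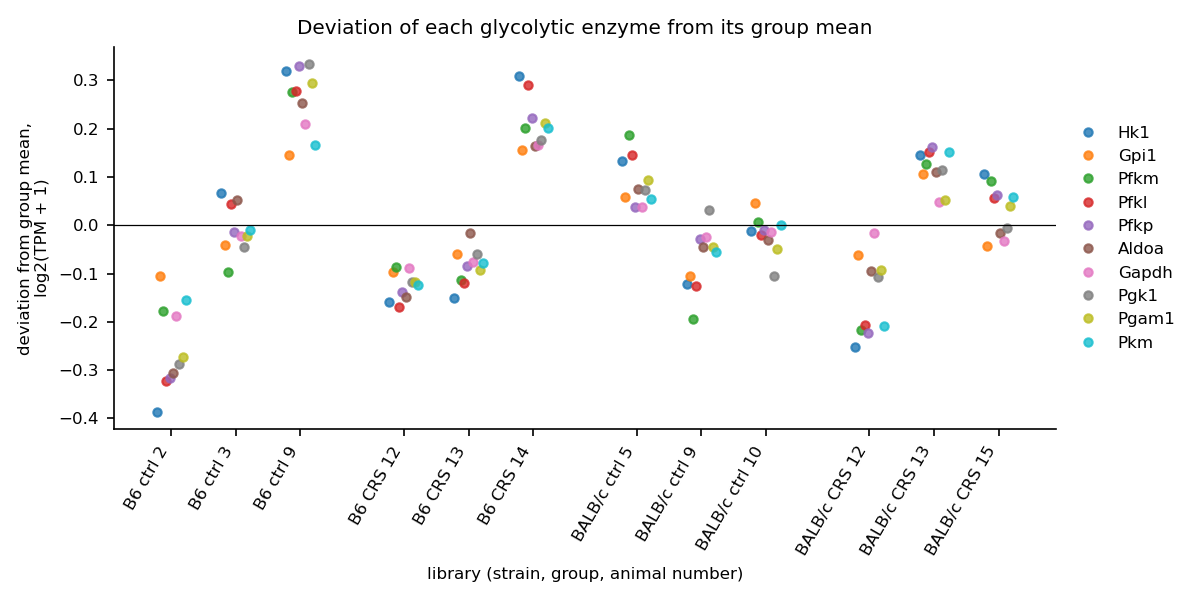
Points give the deviation of each enzyme from its group mean on the log2(TPM + 1) scale (y axis) in each library (x axis), 1 colour per enzyme. The 10 enzymes cluster within each library: all 10 lie below 0 in B6 control 2 and above 0 in B6 control 9, as under both other scalings; the BALB/c pattern did not keep its order there.

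Among 8568 genes with a mean of at least 10 TPM, the 3 whose within-group deviations were most like the mean of the 10 members over 12 libraries were Ppm1l (r = 0.993), Lrp11 (r = 0.992) and Tigar (r = 0.989). This ranking rests on the deposited values, and the spread of r over the other genes is not given. Tigar encodes a fructose-2,6-bisphosphatase that slows phosphofructokinase, and was at a mean of 13.3 TPM.

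The promoters of the members are shown beside all promoter windows, and their part in the shared movement was not tested. The windows are the 250 bases before the annotated start (RefSeq, GRCm38.p6), and all 10 members were matched by symbol. ACGTG, a form of the core of the hypoxia response element bound by HIF, was searched on both strands (CACGT on the other). Other forms of this core were not searched, so a window without ACGTG may hold them. GGGCGG, the GC box, was searched likewise. ACGTG was present for Pfkm, Aldoa, Pgk1, Pgam1 and Pkm, 5 of 10 members, in 7 of their 17 windows, and in 16.6% of all 32851 promoter windows of this length. GGGCGG was present for Gpi1, Pfkp, Aldoa, Pgk1 and Pkm, 5 of 10, in 6 of the 17 windows, and in 32.7% of all windows. Windows of 1 gene can overlap, and a match is a description of letters, not a site. Windows with and without ACGTG are printed 5′ to 3′ on the gene's strand, with ACGTG or CACGT in capitals. They are Pgk1 (chrX:106186850-106187099, plus strand, 2 matches), Pgam1 (chr19:41911621-41911870, plus strand, 1 match) and Gapdh (chr6:125165774-125166023, minus strand, none).
Pgk1: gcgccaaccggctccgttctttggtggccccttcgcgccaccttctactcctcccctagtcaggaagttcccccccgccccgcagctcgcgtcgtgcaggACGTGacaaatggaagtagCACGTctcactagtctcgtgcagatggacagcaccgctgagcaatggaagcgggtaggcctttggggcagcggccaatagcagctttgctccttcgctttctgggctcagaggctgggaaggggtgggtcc
Pgam1: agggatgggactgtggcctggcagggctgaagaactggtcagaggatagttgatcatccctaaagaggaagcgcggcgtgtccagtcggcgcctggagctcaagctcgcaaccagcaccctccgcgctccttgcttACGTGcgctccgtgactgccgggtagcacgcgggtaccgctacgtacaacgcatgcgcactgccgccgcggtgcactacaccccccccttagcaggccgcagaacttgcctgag
Gapdh: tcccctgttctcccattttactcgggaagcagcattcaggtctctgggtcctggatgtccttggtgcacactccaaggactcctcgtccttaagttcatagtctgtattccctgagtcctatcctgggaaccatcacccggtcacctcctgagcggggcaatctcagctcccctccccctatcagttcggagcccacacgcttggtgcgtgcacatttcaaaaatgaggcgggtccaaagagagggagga

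Around the 10 members, 8 lists of neighbouring genes with 63 tested genes in all were followed. Under stress 0 of these were called by limma in B6 and 0 in BALB/c, with an unadjusted p under 0.05 for 5 and 1 of the 63, beside 4.82% and 3.03% of all genes. Between strains 4 of 63 were called in controls and 5 of 63 under CRS, beside 4.73% and 7.70% of all genes, shares near this background. Of 12 remaining isozymes and steps 8 were tested. Aldoc, the aldolase typical of astrocytes, was lower in BALB/c, with 647, 624 and 629.9 TPM in the B6 control mice, 627, 573 and 634 in B6 CRS, 456, 477 and 458 in BALB/c controls and 424, 469 and 464 in BALB/c CRS mice. The difference was -0.45 ± 0.08 in controls (adjusted p = 0.00571 in limma) and -0.43 ± 0.08 under CRS (adjusted p = 0.00708). Aldoa, the aldolase among the 10 members, stood at 0.05 and 0.16 in the same comparisons and was not called. The summed level of 7 astrocyte markers, all 7 detected, was 899.6 to 990.4, 828 to 938, 702 to 796 and 617 to 851 TPM in B6 control, B6 CRS, BALB/c control and BALB/c CRS mice, and its part in the Aldoc difference was not tested. Hkdc1, a hexokinase domain protein at 0.844 to 19.4 TPM, was higher in BALB/c under CRS by 2.41 ± 0.54 (adjusted p = 0.0205 in limma), and in controls stood at 1.22 ± 0.54 (adjusted p = 0.251). Triosephosphate isomerase, Tpi1, which interconverts the products of aldolase, was not called, at 0.05 in controls and 0.14 under CRS.

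Enolase, the step between Pgam1 and Pkm, had 2 of 4 genes called in both strain comparisons, Eno1 lower and its close relative Eno1b higher in BALB/c. Eno1 was at 591 to 885 TPM in B6 and 264 to 292 TPM in BALB/c, and Eno1b at 1.32 to 3.21 and 262 to 303 TPM. How reads were divided between Eno1 and Eno1b is not known, so the 2 differences may not be separate. In the pentose phosphate pathway, which branches off after hexokinase, 1 of 8 genes was called in each strain comparison. Tkt, transketolase, was lower in BALB/c controls (-0.37 ± 0.09, adjusted p = 0.0449 in limma), and G6pdx, the entry enzyme, was lower in BALB/c under CRS (-0.47 ± 0.12, adjusted p = 0.0421). After median-of-ratios scaling neither was called, with -0.25 (adjusted p = 0.0630 in limma) for Tkt and -0.40 (adjusted p = 0.0711) for G6pdx. With the abundant RNA left out of the total, Tkt was called at -0.28 (adjusted p = 0.0469 in limma) and G6pdx was not, at -0.42 (adjusted p = 0.0664). In glucose and lactate transport 0 of 6 tested genes were called, in lactate and pyruvate use 0 of 16, in glycogen metabolism 0 of 12, in gluconeogenesis 0 of 2 and among regulators of flux 0 of 7. The unadjusted p was under 0.05 for 1, 1, 4, 0 and 0 of these in controls and for 2, 2, 3, 0 and 1 under CRS. None of the genes of lowest p in these lists was called. In transport they were Slc16a1, a monocarboxylate (lactate) transporter, in controls (-0.48, adjusted p = 0.166 in limma) and Slc2a1, the glucose transporter of the blood-brain barrier, under CRS (-0.33 ± 0.12, adjusted p = 0.114). In lactate and pyruvate use they were Mpc1, a subunit of the mitochondrial pyruvate carrier (-0.28, adjusted p = 0.147 in limma), and Pdk3, a pyruvate dehydrogenase kinase (-0.39, adjusted p = 0.113). In glycogen metabolism Gys1, glycogen synthase, was at -0.60 in controls (adjusted p = 0.0515 in limma) and Ugp2, which makes UDP-glucose, at -0.28 under CRS (adjusted p = 0.0653). In gluconeogenesis G6pc3 was at -0.31 in controls and Pck2 at 0.26 under CRS (adjusted p = 0.286 and 0.328 in limma). Among the regulators Pfkfb3, which makes the phosphofructokinase activator fructose 2,6-bisphosphate, was at -0.32 and -0.35 (adjusted p = 0.313 and 0.202 in limma).

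Under stress the genes of lowest p in the 8 lists were, in B6, Pgam2 (0.91), Eno1b (-0.35), Pfkfb4 (-0.24), Slc16a3 (0.52), Pdk1 (-0.30), Pgd (0.13), Gys1 (-0.45) and Pck2 (0.06), all with an adjusted p of 1 in limma. In BALB/c they included Eno3 (-0.16), Pfkfb1 (-0.28), Slc16a1 (0.16), Pdk2 (0.25), Tkt (0.15), Ugp2 (-0.11) and Pck2 (0.26), again each with an adjusted p of 1 in limma. These are log2 differences, CRS minus control.

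Gapdh, taken without its copies, was also set beside 12 other genes in common use as references. Its spread thus depends on how reads were divided between it and the copies, which is not known. Over the 12 libraries its coefficient of variation was 22.9%, against 8.65% for Ppia, 9.12% for Hprt, 9.48% for Ywhaz and 11.3% for Actb. Of the 12, 3 varied more, B2m (26.5%), Gusb (34.9%) and Rplp0 (41.6%). Within groups the coefficient of Gapdh was 10.5%, and 7 of the 12 varied more. The same 3 were called between strains in controls and under CRS, all lower in BALB/c and called under both other scalings too. Rplp0, a ribosomal protein gene, was at 218 to 305 TPM in B6 and 114 to 142 TPM in BALB/c. Under stress 0 of the 12 were called in either strain (0 with an unadjusted p under 0.05 in limma).

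Some members share their locus with other genes. On the opposite strand, Hk1 overlaps Hk1os, Gpi1 overlaps Gm26762, Pfkm overlaps Senp1, and Pfkp overlaps Pitrm1. Gapdh likewise overlaps Iffo1, and Aldoa overlaps Fam57b and Gm44856. On the same strand, Pfkm overlaps Gm26513 and Pkm overlaps Gm49759. The libraries were stranded, but whether the quantification used strand is not given in the sources used here. Reads of opposite-strand partners may thus not be fully separated, and strand cannot separate partners on the same strand.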

How the data were processed

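RNA of the medial prefrontal cortex of 12 mice was sequenced from stranded mRNA libraries, read in pairs, per the labels' protocols. The authors deposited transcript-level TPM values in 1 table with a column per mouse. Neither its header nor the labels name the unit, which was read from column totals of 1000000 and non-integer values. The submitters' processing notes name cutadapt 2.9, Salmon and the build GRCm38, which comes from C57BL/6J; options and annotation are not given in the sources used here. Rows sharing a gene name were summed (147902 rows, 55678 names). Columns matched sample titles, and 0 columns belonged to no sample. The 16423 genes that reached 1 TPM in 3 or more libraries entered the tests on log2(TPM + 1), which understates changes of low genes, with limma 3.58.1 in R 4.3.3: means of the 4 groups, 8 residual degrees of freedom, an intensity trend and Benjamini-Hochberg adjustment over all genes, called under 0.05. Sums over members were compared by exact permutation with scipy 1.17.1. A count test, planned in case of counts, could not be used on TPM. The fitting code was tested on simulated data. Copies were found with blastn 2.17.0 on GENCODE M21 transcripts.

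Members and gene lists were chosen with earlier results of these data known. All members were named, with for each the most abundant copy, the called genes of each pathway list (at most 3 in each direction) or else, in the 4 comparisons within a strain or a condition, the gene of lowest p, and the 3 genes most like the members' mean. The gene of lowest p in 1 list is not reported here. Gm5559, Gm2606, Gm7336, Slc17a7, Tpi1 and the reference genes named with their variation were chosen after their values were seen. The alternatives tried were the pseudocount, filters, scalings, the trend, the fitted groups, a replicate block, copies, and leaving out each mouse.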

Additional observations from a re-analysis of the deposited data

How the results depend on the processing

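Counts of called members (1 in each strain comparison, 0 in the others) depended on some choices. In controls the count was 0 with no filter on low values, 0 with only the groups compared in the fit, and 0 with length-weighted copies. Under CRS it was 0 with no filter, 0 with length-weighted copies, 2 with median-of-ratios scaling and 2 without abundant non-coding and mitochondrial RNA. Summed with its copies, the log2 difference of Gapdh reversed to 0.522 in controls and 0.5282 under CRS, and with length-weighted copies to 0.3072 and 0.3057. The strain difference in the summed TPM of the members (BALB/c minus B6) moved from -906 in controls and -638 under CRS to 1531.7 and 1928.7 with copies, 851 and 1210.4 with length-weighted copies, and 96.5 and 433.9 without Gapdh; these follow from what the sum contains. The alternatives with copies of the coding transcript and without Gapdh were chosen after seeing the data.

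Leaving out each mouse of the groups compared in turn gave 1 called member in each strain comparison every time and 0 in each CRS comparison. The summed TPM then differed by -1508.6 to -260.6 between strains in controls, by -948.8 to -144.8 under CRS, by -784.4 to 463.6 for CRS in B6, and by -156.4 to 324 for CRS in BALB/c. Over all genes the calls between strains in controls (777) became 437 with a mean of at least 5 TPM required and 463 with only the groups compared. They ranged from 428 to 1389 on leaving out a mouse: 1389 without B6 control 9, 428 without BALB/c control 10, 497 without B6 control 2 or BALB/c control 5, and 504 without B6 control 3. Under CRS (1264) they became 702 with the mean of 5 TPM and 750 with the replicate block, and ranged from 539 to 894, with 539 and 736 without B6 CRS mice 12 and 13 and 604, 665 and 799 without BALB/c CRS mice 12, 13 and 15. The CRS calls in B6 (0) became 2 with a pseudocount of 0.1, 7 with no filter, 1 with the mean of 5 TPM, 1 with the block, and 0 to 2 on leaving out a mouse (2 without control 2 or CRS 13, 1 without control 9). In BALB/c (1) they became 0 with that pseudocount, with either filter, with median-of-ratios scaling and with the block, and 0 to 1 on leaving out a mouse (1 only without CRS 13). The interaction (0) gave 2 with no filter and 0 to 2 on leaving out a mouse (2 without B6 control 2). The averaged CRS effect (1) gave 2 with either filter and with either scaling, and 0 to 2 on leaving out a mouse (2 without B6 control 2 or B6 CRS 14, 0 without BALB/c control 5, CRS 12 or CRS 15). Of 1084 uncalled member values under all alternatives, 118 had the other sign from the value reported, 80 of them on leaving out a mouse.

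Animal numbers 9, 12 and 13 occur in both strains but name different mice, and same-numbered mice did not deviate together (correlations of -0.24, -0.03 and -0.04 across genes). With a replicate block for these numbers, Gapdh stayed at -0.56 (adjusted p = 0.0395 in limma) in controls and -0.61 (adjusted p = 0.0259) under CRS, and no other member was called. With 3 mice per group and no read depth, small changes could not be resolved.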
